A study of Mus musculus with 8 samples.

Results

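Glutathione is the main thiol antioxidant of most cells, and 10 genes for its synthesis, recycling and use were examined in the neonatal mouse ventricle. They are *Gclc*, *Gclm*, *Gss*, *Gsr*, *Slc7a11*, *Gpx1*, *Gpx3*, *Gpx4*, *Ggct* and *Glrx*, taken by name for their place in glutathione metabolism. The choice was made with earlier results of these data known. Each name matched 1 gene of the 40690 in the count table, and all 10 passed the filter on low counts. The study asked what loss of NAE1, the regulatory subunit of the enzyme that activates the ubiquitin-like protein NEDD8, does to the heart.

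Polyadenylated RNA was sequenced from ventricles of 4 NAE1CKO and 4 littermate control (CTL) pups, aged postnatal day 1 by the labels and drawn as day 0 in the study's scheme, with 1 library each. NAE1CKO pups carried the floxed NAE1 allele together with the αMHCCre transgene, whose promoter restricts Cre to cardiomyocytes. Other cells of the ventricle keep the gene. Mice of the study were on a C57BL/6J background. The genotype labels read knockout for NAE1CKO and wt for CTL. Which alleles of the floxed gene and transgene the CTL pups had was not given in the sources used here. Although a tag for the cell line reads cardiomyocyte, the tissue tag and the methods give ventricle, and markers of several cell types were present. Libraries are named below by their titles. These fall into a set marked KO-443 or WT-443 and a set marked KO-453 or WT-453, and the labels do not state what the number means.

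In glutathione synthesis, glutamate-cysteine ligase joins glutamate to cysteine in the rate-limiting step, and glutathione synthetase then adds glycine. Glutathione peroxidases use the thiol to reduce peroxides, and glutathione reductase restores the oxidized form with NADPH. Cysteine often limits synthesis, and cells can import it in its oxidized form, cystine, in exchange for glutamate. Cardiomyocytes, rich in mitochondria, rely on these reactions to dispose of hydrogen peroxide and lipid peroxides. NRF2 is a transcription factor that binds antioxidant response elements at many genes of glutathione metabolism.

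The libraries held 13932821 to 18056322 counts in CTL and 16304420 to 18593509 in NAE1CKO. The targeted gene *Nae1* ranged from 10.6 to 13.2 CPM (read counts relative to library sizes that were adjusted by TMM) in NAE1CKO and from 22.3 to 24.1 CPM in CTL, matching the label of every library, with a log2 fold change of -0.96 ± 0.087 (SE) and an adjusted p of 7.18e-06 by edgeR's quasi-likelihood test with Benjamini-Hochberg adjustment. *Gm42418*, a gene that overlaps ribosomal RNA sequence, took 12.8% of the counts of WT-453-5 and between 3.09% and 4.62% of the other libraries. Cardiomyocyte markers were abundant in all libraries, with 0 of 8 at 0 counts, and their summed level was 59087 to 63618 CPM in NAE1CKO and 68242 to 84189 CPM in CTL. Of these 8 markers, 3 were called lower and 5 did not pass, so the sum does not stand for each marker. *Myh6* averaged 17016 CPM in NAE1CKO and 26420 CPM in CTL, while *Actc1* and *Actn2* had log2 fold changes of 0.06 and 0.09 without passing. Macrophage markers summed to 146 to 202 CPM in NAE1CKO and 98.9 to 107 CPM in CTL, with 9 of 10 called higher and 0 of 10 at 0 counts. Over all genes tested, 18.6% were called higher and 17.6% lower. The part of these marker shifts in the results on glutathione genes was not tested. In bulk tissue, fewer cells of a type and less RNA per cell cannot be told apart.

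Of the 10 glutathione genes, 8 were higher in NAE1CKO at an adjusted p under 0.05 (edgeR's quasi-likelihood test, Benjamini-Hochberg adjustment over 13622 genes), where 18.6% of all genes tested were called higher. These were *Gclc*, *Gclm*, *Gss*, *Gsr*, *Slc7a11*, *Gpx1*, *Gpx4* and *Ggct*. For each of them, every NAE1CKO library lay above every CTL library, a separation in that direction that 18.6% of all genes tested showed. The remaining members, *Gpx3* and *Glrx*, had overlapping groups and did not pass. With a fold above 1.5 required as well, 5 members were higher (*Gclc*, *Gclm*, *Gsr*, *Slc7a11* and *Ggct*), against 7.31% of all genes tested, with folds between 1.80 and 31.6. The median log2 fold change was 0.70 over the 10 members and -0.00 over all genes tested. Because the members were chosen with earlier results of these data known, the counts set beside all genes are a description only.

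**Figure D1:**
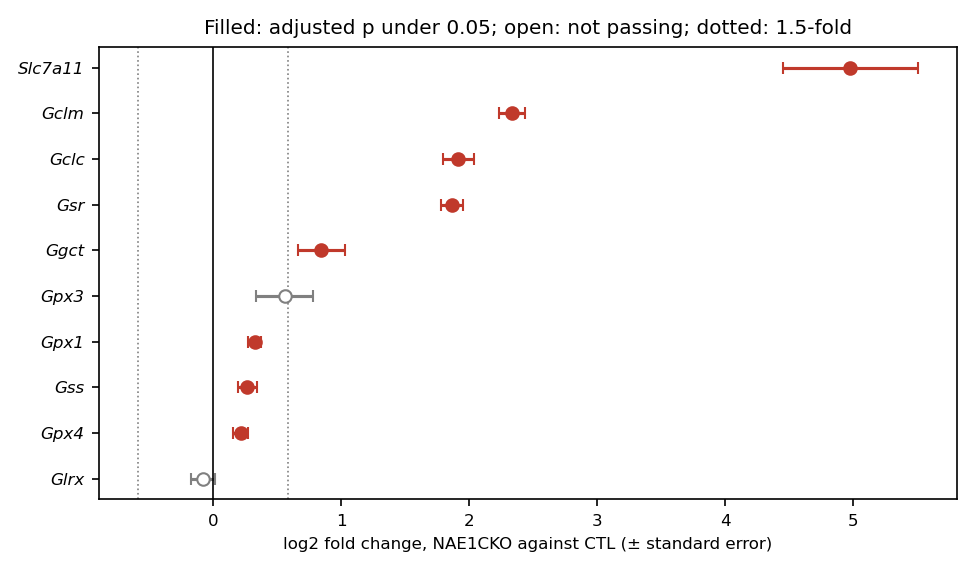
Log2 fold change of NAE1CKO against CTL for each of the 10 genes (x axis, edgeR), with bars of ± 1 standard error from 4 libraries a group. Filled points passed an adjusted p under 0.05, open points did not, and dotted lines mark 1.5-fold. *Slc7a11* at 4.98 lies far to the right, *Gclm*, *Gclc* and *Gsr* lie between 1.87 and 2.34, and *Glrx* lies at -0.08.

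Transcripts for both subunits of glutamate-cysteine ligase rose. *Gclc* (ENSMUSG00000032350, chr9:77754535-77794485 of GRCm38, plus strand) encodes the catalytic subunit. Its level was 55.9 CPM in KO-443-3, 47.4 in KO-443-5, 56.7 in KO-453-6 and 70.9 in KO-453-7. In CTL it was 15.6 CPM in WT-443-7, 13.4 in WT-443-8, 16.7 in WT-453-3 and 15.3 in WT-453-5. The lowest NAE1CKO library was thus well above the highest CTL library, and KO-453-7 stood highest. The log2 fold change was 1.92 ± 0.12 (SE), or 3.78-fold, with an adjusted p of 7.21e-07 (edgeR's quasi-likelihood test).

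*Gclm* (ENSMUSG00000028124, chr3:122245557-122270732, plus strand) encodes the modifier subunit, which raises the efficiency of the catalytic subunit. Counted in the same order of libraries, it stood at 129, 111, 144 and 156 CPM in NAE1CKO and at 27.1, 29.3, 24.5 and 26.0 CPM in CTL. The CTL libraries lay close together and far below every NAE1CKO library. The log2 fold change of *Gclm* was 2.34 ± 0.10 (SE), or 5.05-fold, with an adjusted p of 7.09e-08 (edgeR's quasi-likelihood test), the 13th smallest p among 13622 genes. Exons of *Gm17494* on the opposite strand cover 4.71% of the exon bases of *Gclm*, and the strand setting of the counting was not given in the sources used here, but *Gm17494* itself held 44 counts over all libraries against 11417 for *Gclm*. Exons of the pseudogene *Gm6061* on the same strand cover 3.88%, and its counts are not given here.

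Transcripts of *Gclm*, for the modifier subunit, were higher relative to those of *Gclc* in NAE1CKO. The groups did not overlap, though the test, whose p is coarse with few libraries, no longer passed without any 1 NAE1CKO library. The ratio of *Gclm* counts to *Gclc* counts, a measure within each library that needs no scaling, was 2.31, 2.35, 2.54 and 2.20 in the NAE1CKO libraries and 1.74, 2.19, 1.47 and 1.70 in the CTL libraries. It averaged 2.35 ± 0.143 (SD, n = 4) in NAE1CKO and 1.77 ± 0.301 (SD, n = 4) in CTL, a log2 difference of 0.42. The two-sided exact permutation test gave p = 0.0286, the smallest that 70 arrangements allow. It did not pass when any of the 4 NAE1CKO libraries was left out, at an exact permutation p of 0.0571 each time. When any 1 CTL library was left out it passed, at an exact permutation p of 0.0286 each time. Fewer arrangements remain with 1 library left out, so p moves in coarse steps and passing can turn on 1 arrangement. The log2 difference stayed between 0.34 and 0.53 in these fits, and between 0.38 and 0.45 in those without an NAE1CKO library. With labels exchanged only within the sets given by the titles, the exact permutation p was 0.0556, the smallest possible there, so that test could not pass. The separation was narrow at its edge, where WT-443-8 lay just under KO-453-7. The longer transcript gives more counts per molecule, so the ratio is not a ratio of molecules.

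**Figure D2:**
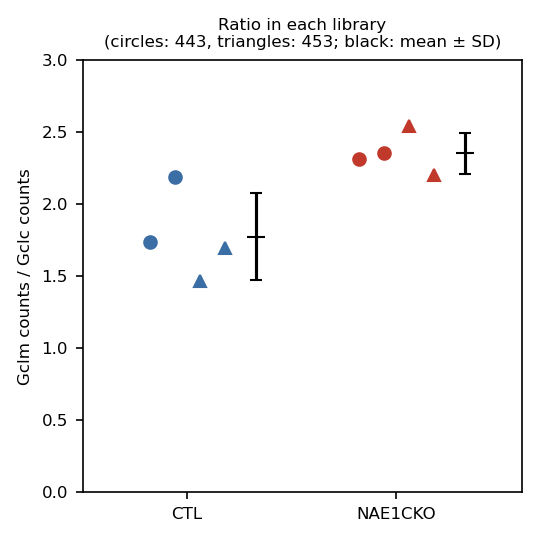
Ratio of *Gclm* to *Gclc* counts in each library (y axis, from 0), with CTL in blue and NAE1CKO in red, circles for the KO-443 and WT-443 libraries and triangles for the KO-453 and WT-453 libraries, and black bars for the mean ± SD of 4 libraries. The NAE1CKO libraries lie from 2.20 to 2.54 and the CTL libraries from 1.47 to 2.19.

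*Gss* (ENSMUSG00000027610, chr2:155563181-155592810, minus strand), which encodes glutathione synthetase, rose by far less. It stood at 22.0, 21.7, 22.0 and 23.2 CPM in NAE1CKO and at 18.5, 20.2, 17.0 and 18.1 CPM in CTL. The groups were close but did not overlap, and the log2 fold change was 0.27 ± 0.075 (SE), or 1.21-fold, with an adjusted p of 0.0146 (edgeR's quasi-likelihood test). Exons of *Acss2*, *Gssos1* and *Gssos2* on the opposite strand cover 6.68%, 5.44% and 6.51% of the exon bases of *Gss*, and without a known strand setting their reads cannot be told from those of *Gss*.

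*Slc7a11* (ENSMUSG00000027737, chr3:49892526-50443614, minus strand) encodes xCT, the cystine-glutamate exchanger subunit that brings in cystine for glutathione synthesis. It was close to the detection limit in CTL, with 7, 10, 4 and 0 counts in the libraries as ordered above, and clearly present in NAE1CKO, with 147, 120, 213 and 297 counts. On the CPM scale these were 7.91, 6.30, 12.8 and 16.4 in NAE1CKO and 0.441, 0.615, 0.226 and 0 in CTL. A count of 0 in WT-453-5 allows up to 3 counts, or 0.241 CPM, counting error only. Every NAE1CKO library thus exceeded every CTL library, and the NAE1CKO libraries themselves differed by more than for *Gclc*, *Gclm* or *Gsr*, with a coefficient of variation of 42.5% against 16.9%, 14.3% and 11.1%. The log2 fold change was 4.98 ± 0.53 (SE), or 31.6-fold, with an adjusted p of 0.000128 (edgeR's quasi-likelihood test), and rests on 21 counts over all CTL libraries against 777 in NAE1CKO.

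**Figure D3:**
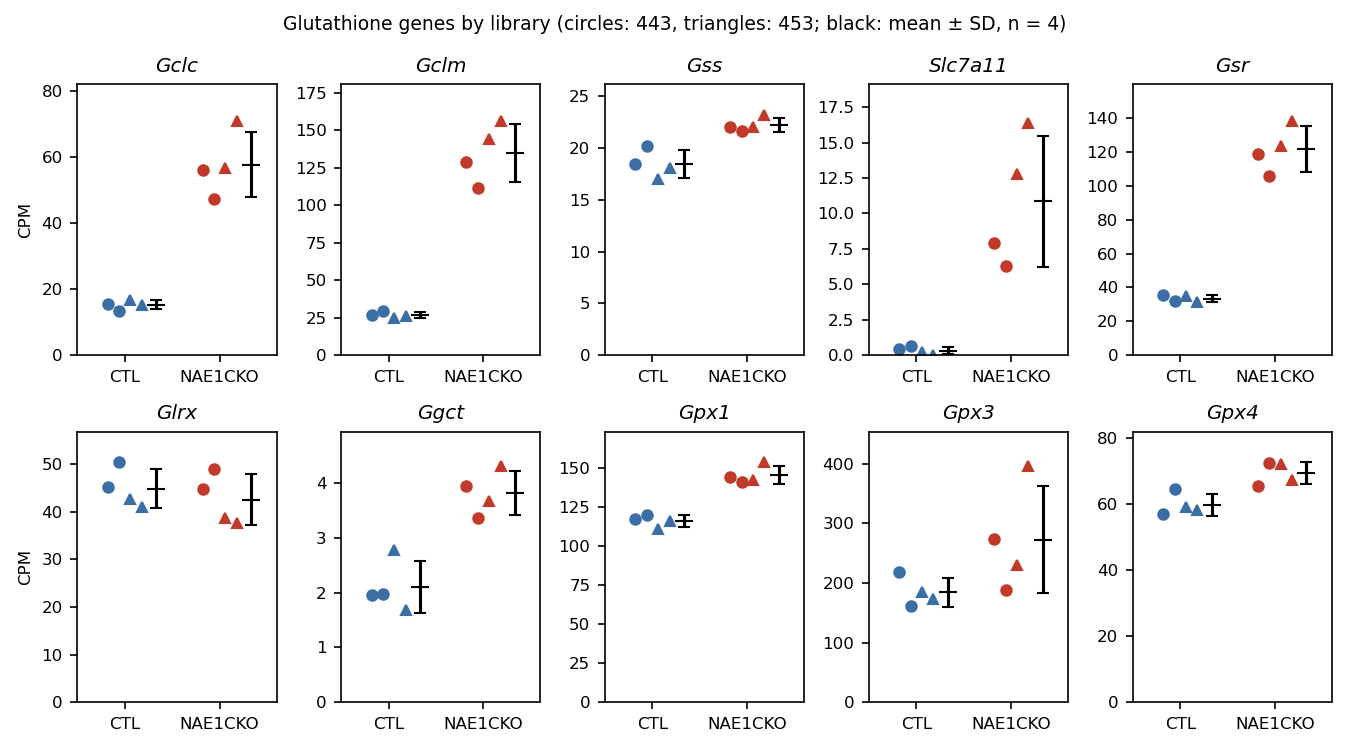
CPM of each of the 10 genes in each library (y axes from 0, scaled per gene), with CTL in blue and NAE1CKO in red, circles for the KO-443 and WT-443 libraries and triangles for the KO-453 and WT-453 libraries, and black bars for the mean ± SD of 4 libraries. The groups are apart for 8 genes and overlap for *Gpx3* and *Glrx*, and KO-453-7, the second red triangle, is the highest NAE1CKO library for 8 genes.

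*Gsr* (ENSMUSG00000031584, chr8:33652523-33698163, plus strand), which encodes glutathione reductase, had the smallest p of the 10 members and the 8th smallest of all genes tested. Its level was 119, 106, 124 and 139 CPM in the NAE1CKO libraries and 35.3, 31.7, 34.9 and 31.3 CPM in the CTL libraries. The groups were far apart, at a log2 fold change of 1.87 ± 0.082 (SE), or 3.65-fold, with an adjusted p of 4.66e-08 (edgeR's quasi-likelihood test). *Glrx* (ENSMUSG00000021591, chr13:75839868-75850154, plus strand) encodes glutaredoxin, which uses glutathione to reduce mixed disulfides on proteins. It stood at 44.7, 49.0, 38.6 and 37.7 CPM in NAE1CKO and at 45.2, 50.4, 42.7 and 40.9 CPM in CTL. Its groups overlapped over most of their range, with a log2 fold change of -0.08 ± 0.093 (SE) and an adjusted p of 0.552 (edgeR's quasi-likelihood test).

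*Ggct* (ENSMUSG00000002797, chr6:54982580-54992950, minus strand) encodes gamma-glutamylcyclotransferase, which acts in the gamma-glutamyl cycle on dipeptides that derive from glutathione. It was a low gene, at 3.93, 3.36, 3.67 and 4.30 CPM in NAE1CKO and 1.95, 1.97, 2.77 and 1.69 CPM in CTL. Even the highest CTL library, WT-453-3, lay under the lowest NAE1CKO library. The log2 fold change of *Ggct* was 0.85 ± 0.18 (SE), or 1.80-fold, with an adjusted p of 0.00309 (edgeR's quasi-likelihood test).

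Of the 3 peroxidases, 2 were higher in NAE1CKO, each by less than 1.5-fold. *Gpx1* (ENSMUSG00000063856, chr9:108338903-108340343, plus strand), the cytosolic and mitochondrial enzyme for hydrogen peroxide, stood at 144, 141, 142 and 153 CPM in NAE1CKO and at 117, 119, 111 and 116 CPM in CTL. Libraries of a group lay close together, so that a log2 fold change of 0.32 ± 0.052 (SE), or 1.25-fold, passed with an adjusted p of 0.000449 (edgeR's quasi-likelihood test). *Gpx1* is also abundant in red cells. Erythroid markers summed to 389 to 765 CPM in NAE1CKO and 417 to 617 CPM in CTL, with 1 of 7 tested called higher and 0 of the 9 measured at 0 counts in all libraries, and their part in the result was not tested.

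*Gpx4* (ENSMUSG00000075706, chr10:80047166-80056439, plus strand) encodes the peroxidase that reduces lipid hydroperoxides within membranes and holds back ferroptosis. Its level was 65.6, 72.5, 72.2 and 67.4 CPM in NAE1CKO and 57.0, 64.5, 59.2 and 58.2 CPM in CTL. The lowest NAE1CKO library lay just above WT-443-8, the highest CTL library. The log2 fold change was 0.22 ± 0.059 (SE), or 1.16-fold, with an adjusted p of 0.0126 (edgeR's quasi-likelihood test).

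*Gpx3* (ENSMUSG00000018339, chr11:54902453-54910377, plus strand) encodes the secreted peroxidase of plasma. It ranged widely in NAE1CKO, at 273, 189, 230 and 397 CPM, and stood at 218, 162, 185 and 174 CPM in CTL. KO-453-7 alone was 1.72 times the mean of the other NAE1CKO libraries, and KO-443-5 lay below WT-443-7. The log2 fold change was 0.56 ± 0.23 (SE) and did not pass, with an adjusted p of 0.0925 (edgeR's quasi-likelihood test; 0.0250 to 0.198 over 19 alternatives). Without KO-443-5 the value was 0.70 and passed, with an adjusted p of 0.0250, and without KO-453-7 it was 0.32, with an adjusted p of 0.0946.

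KO-453-7 was the highest NAE1CKO library for 8 of the 10 genes and KO-443-5 the lowest for 8. How often this order holds over all genes tested was not counted, so it may be a trait of the libraries. KO-453-7 also had the highest summed macrophage, erythroid and epicardial markers of all libraries, at 202, 765 and 33.1 CPM. Its summed cardiomyocyte and ventricle markers were the lowest, at 59087 and 5394 CPM. The part of any of these in the spread among NAE1CKO libraries was not tested. Without KO-453-7, and likewise without WT-453-5, in which *Gm42418* was high, 8 members were called higher. Within each of the sets given by the titles, 9 of the 10 genes had a higher mean in NAE1CKO than in CTL, and the share over all genes was not counted. The ratio of these means was 3.56 for KO-443 against WT-443 and 3.98 for KO-453 against WT-453 for *Gclc*. For *Gclm* the corresponding ratios were 4.26 and 5.94, and for *Gsr* 3.35 and 3.96. The sets were farther apart for *Gpx3*, at 1.21 and 1.75, and for *Slc7a11*, at 13.5 and 129, the latter resting on 4 and 0 counts in WT-453-3 and WT-453-5. Whether the ratios differ between the sets was not tested. *Glrx*, the remaining gene, had ratios of 0.980 and 0.913.

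Levels of the 10 genes can be set side by side only per length, here as CPM per kilobase of exon of the GENCODE M21 annotation. In CTL, *Gpx3* was highest at 102, followed by *Gpx1* at 80.4, *Gpx4* at 34.6, *Gsr* at 12.1, *Glrx* at 8.16, *Gclm* at 4.25, *Gclc* at 4.05, *Gss* at 3.12, *Ggct* at 0.270 and *Slc7a11* at 0.0230 CPM per kilobase. Only *Gclm* and *Gclc*, among neighbors in this order, had ranges over libraries that overlapped. In NAE1CKO the peroxidases *Gpx3* at 150 and *Gpx1* at 101 were still at the top, with overlapping ranges. *Gsr* at 44.2 CPM per kilobase came before *Gpx4* at 40.3, the reverse of their order in CTL, again with overlap. The ligase subunits *Gclm* at 21.5 and *Gclc* at 15.3 passed *Glrx* at 7.74, *Gss* stood at 3.76, and *Slc7a11* at 0.779 came before *Ggct* at 0.493, with overlap, where in CTL it was the lower. Isoforms differ in length, so these levels are approximate.

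**Figure D4:**
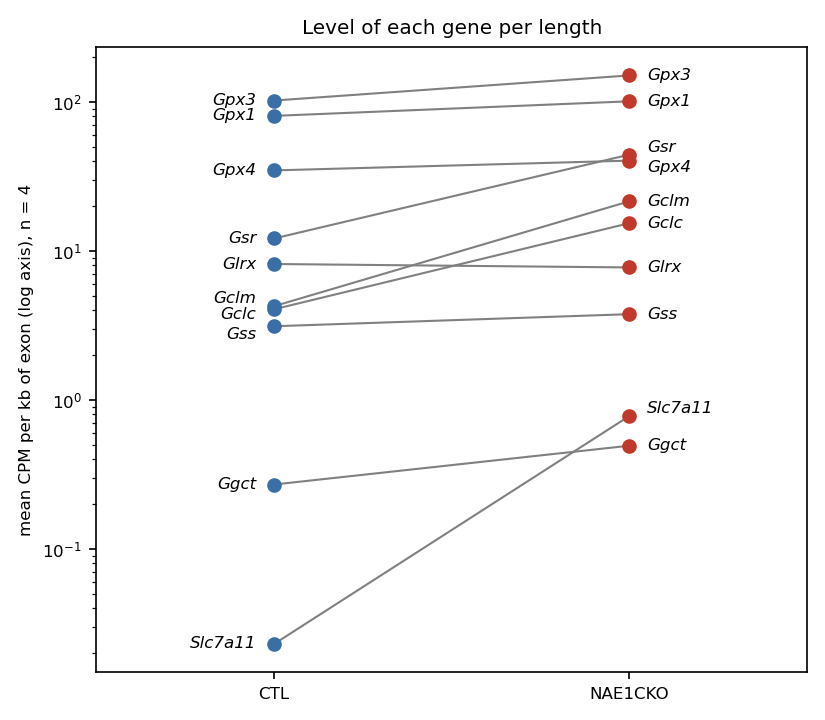
Mean level of each gene in CTL (left, blue) and NAE1CKO (right, red) in CPM per kilobase of exon on a log axis, with 1 line per gene and 4 libraries a group. The lines of *Slc7a11*, *Gclm*, *Gclc* and *Gsr* are steep and cross those of genes above them, while those of *Gpx1*, *Gpx4*, *Gss* and *Glrx* are nearly flat.

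The windows around the start sites of these genes were read for the core of the antioxidant response element, since several of these genes are known targets of NRF2. RefSeq windows of 300 bases on GRCm38.p6 were at hand for 8 of the 10 genes, all but *Gclc* and *Gsr*. The core was spelled TGACNNNGC and searched on both strands, and 12.4% of 32851 windows of this length hold it. It occurred in the windows of *Gclm* and *Ggct* and was not found in those of *Glrx*, *Gpx1*, *Gpx3*, *Gpx4*, *Gss* and *Slc7a11*. The *Slc7a11* window held another core, TGATGNAA, the composite element of ATF4 and C/EBP factors, which 3.97% of windows and 4.51% of genes hold and which was searched for after that window had been read. The stretches that hold the matches are shown, 5′ to 3′ on the strand of the gene, with the matched letters in capitals.
Gclm, chr3:122245403-122245451, plus strand: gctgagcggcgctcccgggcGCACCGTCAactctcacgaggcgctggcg
Ggct, chr6:54993013-54993061, minus strand: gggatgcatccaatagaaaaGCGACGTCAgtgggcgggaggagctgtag
Ggct, chr6:54992834-54992882, minus strand: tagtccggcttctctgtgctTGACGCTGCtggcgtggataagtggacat
Slc7a11, chr3:50443633-50443699, minus strand: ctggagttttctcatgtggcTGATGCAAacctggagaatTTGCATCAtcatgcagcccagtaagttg

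In *Gclm* the match lies 134 to 126 bases before the start site and reads on the strand opposite to the gene. *Ggct* has 1 match 174 to 166 bases before its RefSeq start, also on the opposite strand. Its other match lies from 5 to 13 bases after that start, on the strand of the gene. Distances are counted from the RefSeq start of each window. For *Ggct* that start lies inside the gene span given above, so RefSeq and GENCODE M21 place its start differently. In *Slc7a11* the matches lie 66 to 59 bases before the start on its own strand and 47 to 40 bases before it on the other. A match of letters is not a site of binding, no binding was measured in these samples, and a window without a match says nothing of elements farther away.

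A further 69 genes around these 10 were grouped by role, and 57 of them passed the filter on low counts. Of these, 19 were higher and 9 lower in NAE1CKO (edgeR's quasi-likelihood test, adjusted p under 0.05), or 33.3% and 15.8%, where 18.6% and 17.6% of all genes tested were called higher and lower. Their median log2 fold change was 0.06. The shares of all genes tested are the background for the count of each group below as well.

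In the group named for the supply of cysteine and glutamate, 6 of 7 tested genes were higher, with a median log2 fold change of 0.75. These 6 include *Glul*, for glutamine synthetase, which consumes glutamate rather than supplying it. *Slc3a2* encodes the heavy chain that carries xCT to the membrane. It averaged 58.7 ± 4.09 CPM (SD, n = 4) in NAE1CKO and 34.9 ± 5.20 CPM (SD, n = 4) in CTL, a log2 fold change of 0.75. *Slc1a4*, which encodes a neutral amino acid transporter, averaged 16.7 ± 2.89 and 7.23 ± 1.10 CPM, a log2 fold change of 1.22. *Slc1a1*, whose product EAAC1 takes up glutamate and cysteine, averaged 8.69 ± 1.67 and 2.70 ± 1.08 CPM, a log2 fold change of 1.67, though exons of *4430402I18Rik* on the opposite strand cover 31.9% of its exon bases. The glutamine transporter gene *Slc1a5* rose by 0.45 on the log2 scale, and *Glud1*, for glutamate dehydrogenase, had a value of -0.04 with an adjusted p of 0.564 (edgeR).

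Among genes that export or carry glutathione and its conjugates, 3 of 8 tested were higher, 1 was lower and 4 did not pass. The higher genes all encode ABC exporters. *Abcc1* (MRP1), which exports glutathione and its conjugates, rose from 14.0 ± 2.42 to 38.9 ± 5.59 CPM (SD, n = 4 each), a log2 fold change of 1.47 with an adjusted p of 1.01e-05 (edgeR). *Abcc3* and *Abcc4* had log2 fold changes of 0.87 and 0.78. *Slc25a11*, which encodes the mitochondrial oxoglutarate carrier, was lower at -0.64, with exons of *Rnf167* on the opposite strand over 8.92% of its exon bases, and *Slc25a39*, needed for glutathione import into mitochondria, had a value of -0.10 with an adjusted p of 0.155 (edgeR).

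In glutathione breakdown, 2 of 9 tested genes (22.2%) were higher and 1 (11.1%) was lower, at a median log2 fold change of 0.06. These are close to the shares of all genes tested, 18.6% and 17.6%. *Chac1*, which cleaves glutathione within the cytosol, was a low gene, at 0.761 ± 0.125 CPM in NAE1CKO and 0.357 ± 0.0849 CPM in CTL (SD, n = 4), with a log2 fold change of 1.09 and an adjusted p of 0.0163 (edgeR). *Ggt7*, a member of the gamma-glutamyltransferase family, was higher at 0.69. *Oplah*, for 5-oxoprolinase, which returns 5-oxoproline to glutamate, fell by 0.57 on the log2 scale, from 82.5 ± 2.72 to 55.7 ± 6.79 CPM. Exons on the opposite strand, of *Acss2* and *Exosc4*, cover 6.04% of *Ggt7* and 6.60% of *Oplah*.

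Of 5 other glutathione peroxidase genes, 2 passed the filter on low counts. *Gpx8*, a peroxidase of the endoplasmic reticulum without selenocysteine, was higher at a log2 fold change of 0.52, and *Gpx7*, of the same compartment, had a value of 0.08 with an adjusted p of 0.528 (edgeR). In a group of 6 made up of the other glutaredoxin genes, the glyoxalase genes and *Esd*, only *Esd* was higher and 2 were lower. *Esd*, whose product hydrolyzes S-formylglutathione, rose from 53.1 ± 3.37 to 115 ± 12.7 CPM (SD, n = 4 each), a log2 fold change of 1.11 with an adjusted p of 1.32e-06 (edgeR). The glyoxalase genes *Glo1* and *Hagh*, which together clear methylglyoxal with glutathione as cofactor, were lower at -0.20 and -0.48.

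GPX1, GPX3 and GPX4 are selenoproteins, which carry selenocysteine inserted at a UGA codon by dedicated machinery. Of 10 genes grouped around that machinery, not all of them dedicated to it, 3 were lower. The fitted log2 fold changes of the other 7 lay between -0.18 and -0.02 without passing. *Pstk*, which phosphorylates seryl-tRNA for selenocysteine, was at -0.55, *Sepsecs*, which completes selenocysteine on that tRNA, at -0.46, and *Secisbp2*, which binds the insertion element of selenoprotein mRNAs, at -0.31. Exons of *Ikzf5* on the opposite strand cover 58.8% of those of *Pstk*.

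Of 15 other selenoprotein genes tested, 6 were higher and 2 lower, with a median log2 fold change of 0.20. *Txnrd1*, for cytosolic thioredoxin reductase, which recycles thioredoxin as glutathione reductase recycles glutathione, had the largest fold change of the 57 genes tested. It averaged 457 ± 67.8 CPM in NAE1CKO and 69.4 ± 4.05 CPM in CTL (SD, n = 4), a log2 fold change of 2.72 with an adjusted p of 4.66e-08 (edgeR). *Dio2*, for the deiodinase that activates thyroid hormone, was higher at 0.59, *Selenon* at 0.30 and *Selenoi* at 0.25. *Msrb1*, for a methionine sulfoxide reductase, was lower at -0.65 and *Selenoo* at -0.36, though exons of *Tubgcp6* on the opposite strand cover 26.7% of *Selenoo*. *Selenop*, for the selenium carrier of plasma, and *Selenow* had values of 0.08 and 0.05 and did not pass.

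**Figure D5:**
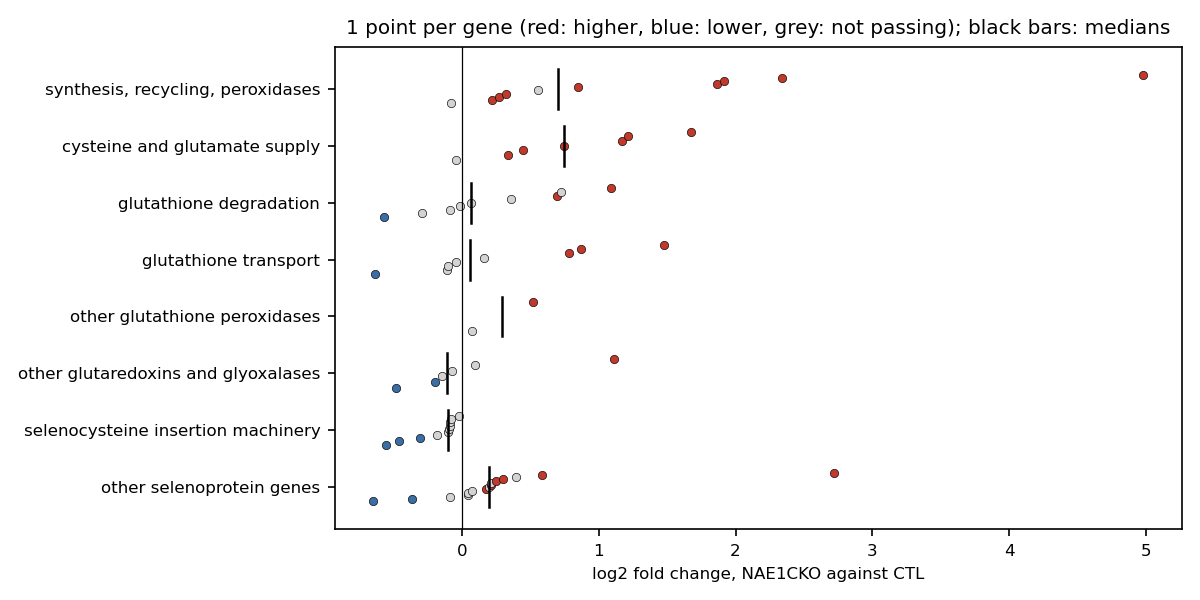
Log2 fold change of NAE1CKO against CTL (x axis, edgeR) for each gene tested, by group of genes, with red for higher, blue for lower and grey for genes that did not pass, and black bars for group medians. The 10 glutathione genes and the 7 genes of cysteine and glutamate supply have medians of 0.70 and 0.75, and the medians of the other groups lie between -0.11 and 0.30.

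Among 12953 protein-coding genes tested, those whose log2 CPM over the 8 libraries was most like that of *Gsr*, the member with the smallest p, were *Edn1*, *Txnrd1* and *Srxn1*, with Pearson correlations of 0.999, 0.999 and 0.998. *Edn1* encodes the vasoconstrictor endothelin-1 and *Srxn1* encodes sulfiredoxin, which repairs overoxidized peroxiredoxins. *Gclc* ranked 7th and *Gclm* 23rd by the same measure. These correlations are a description, since the groups form separate clusters and the measure mostly follows the difference between them.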

How the data were processed

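For 4 NAE1CKO and 4 CTL ventricle libraries, the authors deposited unnormalized counts of reads by Ensembl gene. According to the submitters' processing notes, reads were aligned with STAR 2.0.4b and counted with featureCounts 1.4.5 of the Subread package after bcl2fastq. Genome build, annotation and strand setting were not given in the sources used here. Of 41264 lines, 574 repeated a gene with identical counts and were dropped, which left 40690 genes. No value column was left out.

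The counts were tested in R 4.3.3 with edgeR 4.0.16 (filterByExpr, TMM, quasi-likelihood test with robust estimation) and Benjamini-Hochberg adjustment over all 13622 genes tested, with a threshold of 0.05. The *Gclm* to *Gclc* ratio was compared by a two-sided exact permutation test. CPM uses TMM-scaled library sizes, and log2 CPM for correlations a prior count of 2. GENCODE M21 gave positions, overlaps and exon lengths on GRCm38, and RefSeq gave start-site windows. The script was tested on simulated data. Replicates of a group differed by more than sampling noise (chi-square per gene 4.03 to 16.5 for pairs without WT-453-5, and 59.5 to 67.2 for its pairs with other CTL libraries). Nothing in the labels says that these are separate litters, so p-values measure the spread between these pups.

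The 10 genes, the other lists and the tests were chosen with earlier results of these data known. Named genes are all 10 members and, from each other list, up to 4 passing genes in each direction by smallest adjusted p and up to 2 others by highest CPM, with *Nae1* and the 3 genes most correlated with the member of smallest p. *Gm42418* was named after its values were seen. The search for TGATGNAA was also added after the data were seen. Alternatives were other scalings (RLE, upper quartile, library size alone), DESeq2 1.42.0, limma-voom (limma 3.58.1), other filters and thresholds, no robust estimation, a block by title number, removal of *Gm42418* or of mitochondrial and hemoglobin genes, and leaving out each library.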

Additional observations from a re-analysis of the deposited data

How the results depend on the processing

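Except for *Gpx3*, each of the 10 genes kept its side of the 0.05 threshold in all 19 alternative fits. The highest adjusted p among the genes called was 0.0470 for *Gss* and 0.0401 for *Gpx4* (edgeR's quasi-likelihood test), so that these small changes sit near the threshold. At an adjusted p under 0.01 in the main fit, 6 of the 10 genes were called higher, without *Gss* and *Gpx4*. *Gpx3* passed without robust estimation, at 0.56 with an adjusted p of 0.0371, and over fits without 1 library each it ranged from 0.32 to 0.70, passing without KO-443-5. Fitted values without 1 library ranged from 1.80 to 2.42 over *Gclc*, *Gclm* and *Gsr*, from 4.65 to 5.46 for *Slc7a11* and from 0.76 to 1.02 for *Ggct*. *Glrx* had a value of 0.00 under library size alone. The log2 difference of the *Gclm* to *Gclc* ratio ranged from 0.34 to 0.53 without 1 library. Its exact permutation p was 0.0571 without an NAE1CKO library and 0.0286 without a CTL library, where few arrangements make p coarse. With the title number as a block it was 0.42 with an exact permutation p = 0.0556, the smallest that arrangements within the numbers allow. The block changed no call of the 10 genes, and the difference between the KO-443 and KO-453 libraries correlated with that between WT-443 and WT-453 at 0.186 over 13622 genes. Genes called lower numbered 1532 with library size alone, where 67.5% of calls were higher against 51.4% with TMM and the median of all genes shifted by 0.08, and 1486 at an adjusted p under 0.01. With 1.5-fold required, 996 genes were higher and 758 lower, with 5 of the 10 genes and 12 and 2 of the other listed genes. At this depth, *Slc7a11* in CTL and low genes such as *Chac1* rest on few counts. Cell numbers, protein and glutathione itself were not measured.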

Other observations

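Several genes of the grouped lists were assigned few or 0 counts in these libraries. *Cth* and *Cbs*, which make cysteine from homocysteine, held 0 to 3 and 1 to 6 counts per library and were not tested. *Txnrd2*, for the mitochondrial thioredoxin reductase, held 0 to 2 counts per library. The annotation behind the counts and the handling of reads shared between annotated genes were not given in the sources used here. These counts, that of *Txnrd2* in particular, therefore do not show that the transcripts were absent. *Glul*, for glutamine synthetase, was higher in NAE1CKO, with a log2 fold change of 1.17 (adjusted p of 0.00744 by edgeR's quasi-likelihood test). These genes were named after their values were seen.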
